A study of Mus musculus with 6 samples.

Results

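The 38 genes described here are striated muscle lineage genes, a list of symbols drawn up around skeletal and cardiac muscle, and all 38 had a row among the 21988 gene symbols of the deposited table. They were followed through the passaging of mouse embryonic fibroblasts (MEFs), mixed connective-tissue cells grown out of C57BL/6 embryos of 13.5 days. Cells were harvested after 2, 8 and 14 cumulative population doublings (PD2, PD8 and PD14), with 2 libraries in each group and 6 in all. No treatment or engineered allele is named in the labels, which give the groups the same strain, medium and source and set them apart by the number of doublings. In each group replicate 1 was a strand-specific library made after ribosomal RNA had been removed (rRNA-depleted), whereas poly(A) RNA was enriched for replicate 2. Values are TPM, a unit of transcript share that is scaled for transcript length within each library and can be compared between genes. The sources used here do not say how many embryos were used, which tissues were removed from them, or whether the 2 libraries of a group came from separate cultures. The tests below fit library method as a block, so p-values measure only how far the 2 methods disagree on the changes between groups. This spread may be technical, and it is not known to include any difference between separate cultures.

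Striated muscle is built from myoblasts under the control of the myogenic regulatory factors Myod1, Myf5, Myog and Myf6, which bind short DNA sites called E-boxes and act with MEF2 proteins. The differentiated fibre is packed with sarcomeres, in which myosin thick filaments pull on actin thin filaments, and the troponin complex makes the pull depend on calcium. Many sarcomere proteins exist as embryonic, slow, fast and cardiac isoforms that replace each other during development, and embryonic muscle makes several isoforms that adult muscle confines to the heart or gives up. Fibroblasts are not known to build sarcomeres, although MEF cultures start from whole embryonic tissue.

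The 38 genes were expressed at low levels, and their sum was highest at PD2 in both methods. By rRNA depletion it was 111 TPM at PD2, 67.4 TPM at PD8 and 65.0 TPM at PD14. In the poly(A) libraries the sum was 190 TPM at PD2, 80.8 TPM at PD8 and 44.5 TPM at PD14. Des alone gave 33.5 and 48.5 TPM of the PD2 sums by rRNA depletion and by poly(A) enrichment. Without Des, the rRNA-depleted sums were 77.6, 64.9 and 63.8 TPM and the poly(A) sums 142, 73.1 and 42.3 TPM at PD2, PD8 and PD14. In each of the 6 libraries between 10 and 22 of the 38 genes had at least 1 TPM and between 4 and 12 were listed at 0. In bulk RNA, fewer muscle-like cells and less muscle RNA per cell cannot be told apart.

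**Figure D1:**
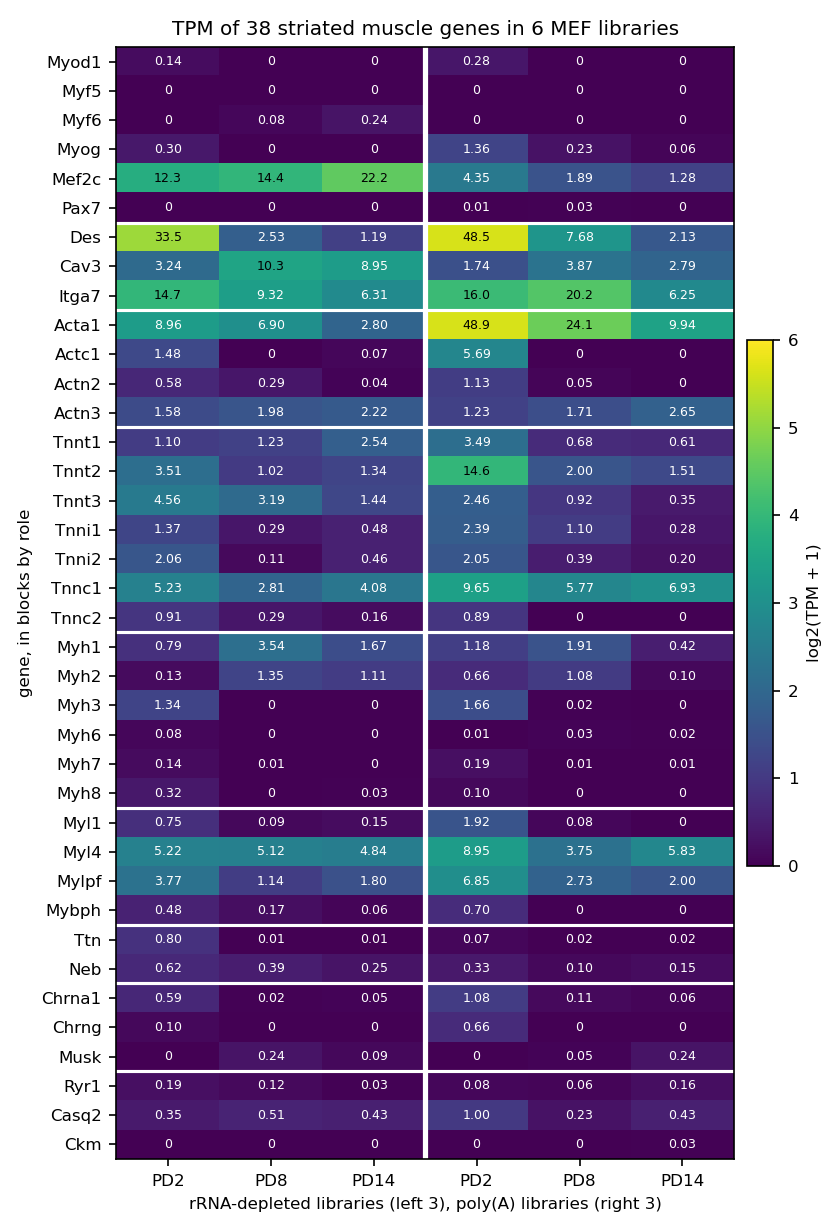
TPM of each of the 38 genes (rows, in blocks by role) in the 6 libraries (columns, rRNA-depleted on the left and poly(A) on the right, each from PD2 to PD14), with the TPM printed in each cell and the colour giving log2(TPM + 1). For 18 genes both PD2 columns exceed the other 4, rows such as Cav3, Actn3, Myh1, Myh2 and Musk are higher at PD8 than at PD2 in both methods, and 4 of the regulators are dark throughout.

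The pattern was counted over all 38 genes, so that it did not depend on a filter on low values. The 38 genes were chosen with earlier results of these data known, so the counts describe these genes and are no test of them as a set. Of the 38, 21 were lower in both PD14 libraries than in both PD2 libraries, against 14.9% of the 17926 genes listed above 0 in at least 1 library. Of these 21, 9 had enough expression to be tested gene by gene below. The other 12 did not exceed 1.92 TPM in any library, and with depth unknown their order rests on values near 0. Only Actn3 and Musk were higher in both PD14 libraries than in both PD2 libraries (2 of 38, against 19.7% of all genes). At PD8, 19 of the 38 were already below both PD2 libraries (13.4% of all genes) and 5 were above both (16.8%). Between PD8 and PD14 the groups separated for few of them: 4 were lower in both PD14 libraries than in both PD8 libraries (6.72% of all genes) and 1 was higher (8.35%). For 18 of the 38 both PD2 libraries lay above all 4 later libraries, against 9.78% of all genes.

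These 18 were Myod1, Myog, Des, Actc1, Actn2, Tnnt2, Tnni1, Tnni2, Tnnc2, Myh3, Myh7, Myh8, Myl1, Mylpf, Mybph, Ttn, Chrna1 and Chrng. With a margin of at least 1.5-fold between the groups, 15 remained, against 2.53% of all genes. This margin was chosen after the data were seen. A gene listed at 0 in all later libraries, such as Myod1 or Chrng, meets it at any PD2 level, so it is no stricter check for genes near 0. The median log2(TPM + 1) difference over the 38 genes was -0.36 for PD14 against PD2, beside 0.02 over the 17926 genes, and -0.45 for PD8 against PD2, beside 0.01. For PD14 against PD8 it was -0.01, beside 0.01. Within library methods, the PD14 against PD2 median was -0.32 by rRNA depletion and -0.68 by poly(A) enrichment, and 24 of the 38 genes were lower at PD14 in both methods (27.4% of all genes) and 3 higher in both (33.3%). For PD8 against PD2, 24 were lower in both methods (28.4%) and 5 higher (32%), and for PD14 against PD8, 8 were lower (21.5%) and 3 higher (24.9%).

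**Figure D2:**
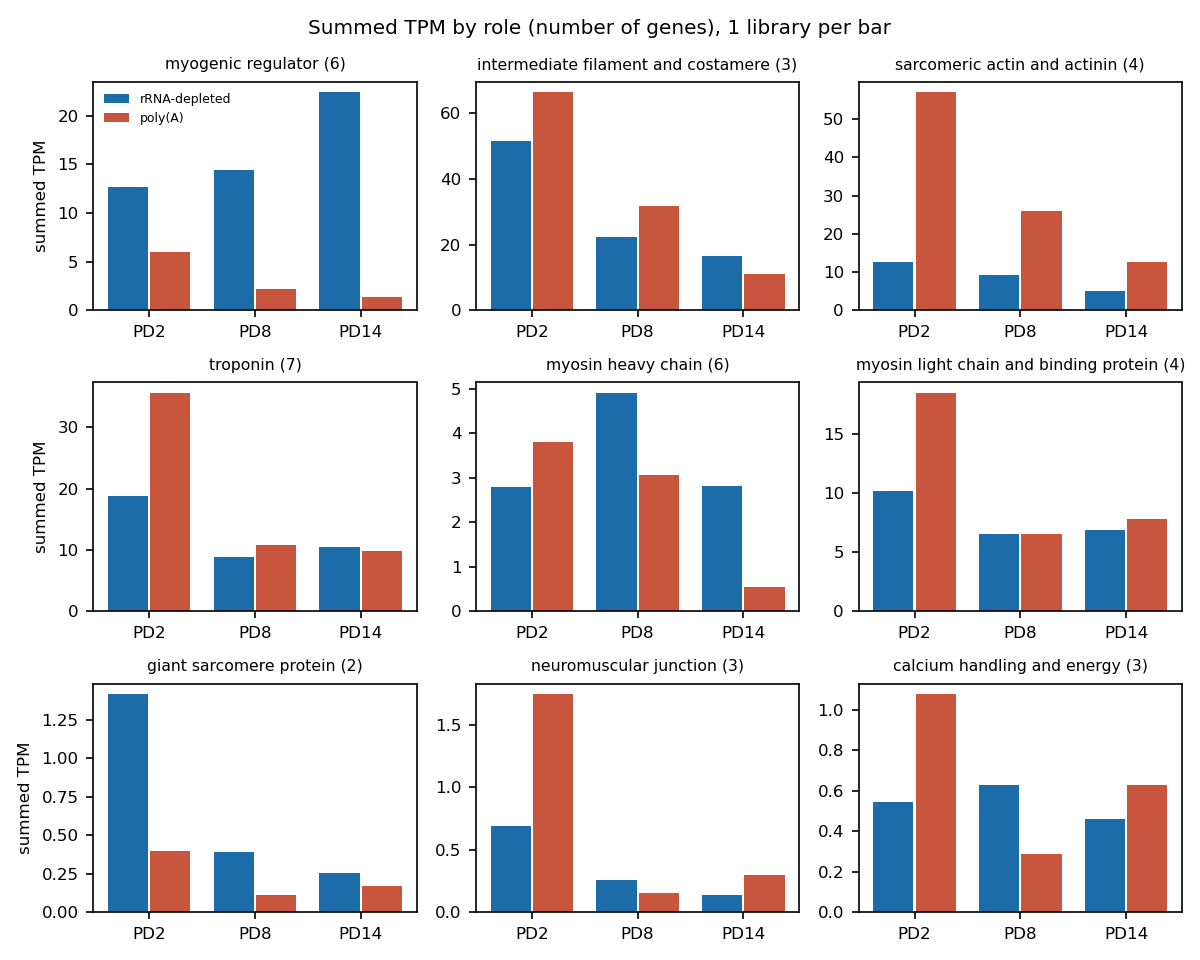
Summed TPM of the genes of each role (number of genes in brackets) at PD2, PD8 and PD14, with 1 bar per library. Troponins, light chains, sarcomeric actins and neuromuscular junction genes stand highest at PD2 in both methods, while the regulator sum is mostly that of Mef2c and runs in opposite directions in the 2 methods.

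Expression was tested gene by gene with limma on log2(TPM + 1), with library method as a block, for the genes that had at least 1 TPM in at least 2 of the 6 libraries. Of the 38 genes 18 met this and 20 did not. The 20 reached at most 1.92 TPM in any library. Of the 18, Actc1, Tnni2 and Myh3 met it only through their PD2 libraries, so a lower later level was built into their selection. For PD14 against PD2, 4 of the 18 fell (4.77% of the 13332 genes tested were called lower) and 0 rose (6.41% of genes were called higher) at a Benjamini-Hochberg adjusted p under 0.05. At an unadjusted p under 0.05, 10 were lower (14.1% of all genes tested), among them the 3 that met the filter only through PD2, and 1, Cav3, was higher (17.9%). The 4 were Des, Acta1, Tnnt3 and Myh3, and of these Myh3 had met the filter only through PD2.

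The count of 4 depended on single libraries, and so did the number of calls over all genes tested. Without the rRNA-depleted or the poly(A) library of PD14 it was 0, with 0 and 5 calls left among all genes tested. Without either PD8 library it was 1 (Des), without the poly(A) library of PD2 it was 2 (Des and Acta1), and without the rRNA-depleted library of PD2 it was 6, with Actc1 and Tnnt2 added. It was 0 with no block for library method, and 2 (Des and Myh3) when genes of low TPM were kept in the test.

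Des encodes desmin, the intermediate filament that ties neighbouring myofibrils together and to the cell membrane (chromosome 1, 75360329 to 75368579, plus strand, mm10). It had 33.5, 2.53 and 1.19 TPM by rRNA depletion at PD2, PD8 and PD14. In the poly(A) libraries it had 48.5, 7.68 and 2.13 TPM. The 3 groups did not overlap, and each later group lay below the one before it. The PD14 level was 28.2-fold lower than the PD2 level in the rRNA-depleted and 22.7-fold lower in the poly(A) libraries, and limma gave a log2 change of -3.98 ± 0.28 (SE, n = 2 libraries per group; adjusted p = 0.0134). Of the exonic bases of Des, 220 of 3754 are shared with the antisense gene Gm15179, and whether reads were assigned by strand is not given in the sources used here.

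Acta1 encodes the actin of skeletal muscle thin filaments (chromosome 8, 123891769 to 123894751, minus strand). It had 8.96, 6.90 and 2.80 TPM by rRNA depletion at PD2, PD8 and PD14, and 48.9, 24.1 and 9.94 TPM by poly(A) enrichment. Within each method every step was downward, but the methods lay so far apart (5.46-fold at PD2) that the PD14 poly(A) value exceeded the PD2 rRNA-depleted one. Limma, which fits the method as a block, gave -1.79 ± 0.26 (adjusted p = 0.0253). Acta1, Actc1 and the smooth muscle and cytoplasmic actins are close relatives, and reads can be divided between such copies, so single values are uncertain.

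Tnnt3 encodes the troponin T of fast skeletal muscle, which anchors the troponin complex to the thin filament (chromosome 7, 142498836 to 142516009, plus strand). Its levels were 4.56, 3.19 and 1.44 TPM in the rRNA-depleted and 2.46, 0.923 and 0.351 TPM in the poly(A) libraries at PD2, PD8 and PD14. Unlike Des, it was higher in the rRNA-depleted library of every group, and the PD14 libraries lay below those of PD2. The fitted change was -1.27 ± 0.26 (limma, adjusted p = 0.0436).

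Myh3 encodes the embryonic myosin heavy chain, the first sarcomeric myosin of the developing limb and trunk muscles (chromosome 11, 67078300 to 67102291, plus strand). It was listed at 0 in both PD14 libraries, against 1.34 TPM in the rRNA-depleted and 1.66 TPM in the poly(A) library of PD2. At PD8 it was listed at 0 and at 0.0213 TPM. The fitted change of -1.32 ± 0.27 (limma, adjusted p = 0.0444) is a product of the added 1, since with 0.1 in its place it was -3.99, and it is no estimate of a fold. Myh3 met the filter of the test only through PD2, so a lower later level was built in and its adjusted p is not read as support for a fall.

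**Figure D3:**
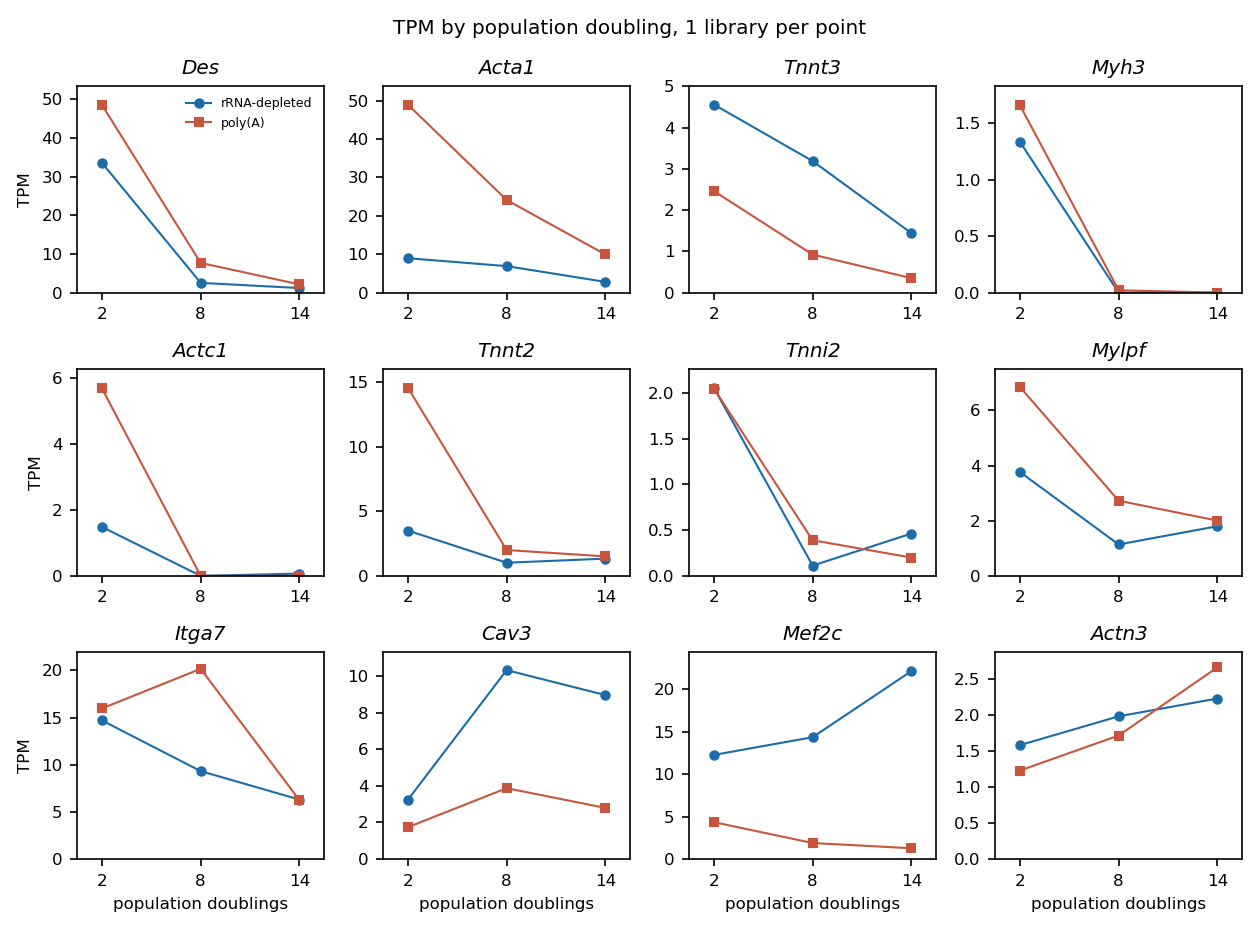
TPM against population doublings for 12 of the genes, with blue circles for the rRNA-depleted and red squares for the poly(A) libraries, 1 library per point. Des, Myh3, Actc1, Tnnt2 and Tnni2 lie lower after PD2 than at PD2 in both methods, Acta1 and Tnnt3 decline over both steps, and the 2 methods run apart for Mef2c.

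The windows around the RefSeq transcription start of these genes are shown because E-boxes and serum response elements near the start are textbook features of muscle promoters. The reference table (GRCm38.p6) held a window from 250 bases before to 50 bases after the start for 31 of the 38 genes, among them Des, Acta1, Myh3 and Actc1 but not Tnnt3. Capitals mark the E-box CAGCTG, the CArG box (the site of serum response factor) and the TATA motif TATAAA, searched on both strands; the sequences run 5′ to 3′ along the strand of the gene.
Des, chr1:75360042-75360341, plus strand: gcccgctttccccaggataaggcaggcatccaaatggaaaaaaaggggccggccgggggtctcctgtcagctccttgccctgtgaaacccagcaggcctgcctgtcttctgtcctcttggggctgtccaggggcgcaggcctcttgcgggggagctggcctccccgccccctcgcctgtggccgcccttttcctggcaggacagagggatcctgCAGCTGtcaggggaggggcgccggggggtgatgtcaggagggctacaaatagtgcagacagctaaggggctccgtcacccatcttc
Acta1, chr8:123894726-123895025, minus strand: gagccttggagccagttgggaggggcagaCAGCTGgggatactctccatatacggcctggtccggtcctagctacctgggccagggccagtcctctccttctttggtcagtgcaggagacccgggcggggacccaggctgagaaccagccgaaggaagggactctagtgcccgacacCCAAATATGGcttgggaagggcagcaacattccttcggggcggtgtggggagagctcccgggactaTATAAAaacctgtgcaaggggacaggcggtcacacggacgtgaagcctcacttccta
Actc1, chr2:114052826-114053125, minus strand: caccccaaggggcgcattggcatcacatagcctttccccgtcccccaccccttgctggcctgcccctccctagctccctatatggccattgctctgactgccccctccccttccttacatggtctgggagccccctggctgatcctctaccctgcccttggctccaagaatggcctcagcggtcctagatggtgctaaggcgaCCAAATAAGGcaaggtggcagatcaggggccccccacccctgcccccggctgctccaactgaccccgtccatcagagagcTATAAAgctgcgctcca
Myh3, chr11:67078050-67078349, plus strand: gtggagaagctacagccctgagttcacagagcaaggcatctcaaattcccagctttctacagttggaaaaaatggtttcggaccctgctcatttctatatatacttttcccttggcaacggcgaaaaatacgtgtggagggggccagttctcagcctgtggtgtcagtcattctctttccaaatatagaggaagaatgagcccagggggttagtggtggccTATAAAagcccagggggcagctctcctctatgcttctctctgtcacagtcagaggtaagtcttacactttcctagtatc
The window of Des holds 1 E-box CAGCTG, at -36 from the start. That of Acta1 holds 1 at -221, a CArG box at -73 and TATAAA at -7. That of Actc1 holds a CArG box at -47 and TATAAA at 33, and that of Myh3 has only TATAAA, at -29. These offsets count from the RefSeq start of each window, which for Des, Acta1 and Actc1 differs from the start of the GENCODE gene. CAGCTG was present in a window of 12 of the 31 genes (38.7%), against 18.3% of the 27025 genes in the table. The 12 were Acta1, Cav3, Chrna1, Chrng, Ckm, Des, Musk, Mybph, Myl1, Mylpf, Tnni1 and Tnnt2, which include genes that fell, genes that did not pass and genes near 0. The CArG box was present in 2 of 31 (6.45%, against 1.81%), TATAAA in 12 of 31 (38.7%, against 15.7%) and a MEF2 site in 4 of 31 (12.9%, against 3.70%). The general E-box CANNTG, of which CAGCTG is a case, was in 25 of 31 (80.6%, against 75.0%).

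Of the 6 regulators, Mef2c met the filter of the test, and of the others Myog alone reached 1 TPM, in 1 library. Myod1, the factor that can turn fibroblasts into muscle when supplied, was listed at 0 in all 4 later libraries, against 0.145 and 0.277 TPM in the rRNA-depleted and poly(A) libraries of PD2. Myog, which drives terminal differentiation, was at 0 and 0.0599 TPM at PD14, against 0.303 and 1.36 TPM at PD2, with 0 and 0.229 TPM at PD8. Both PD2 libraries were above all later ones for both genes, at levels below the filter of the test. Myf5, the earliest of the family in the embryo, was listed at 0 in every library. Myf6 reached 0.242 TPM in the PD14 rRNA-depleted library and was listed at 0 in both PD2 libraries. Pax7, the marker of muscle stem cells, reached at most 0.0284 TPM.

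Mef2c is a partner of the myogenic factors that is also made in endothelium, neurons and other cells (chromosome 13, 83504034 to 83667080, plus strand). Its levels were 12.3, 14.4 and 22.2 TPM by rRNA depletion at PD2, PD8 and PD14. In the poly(A) libraries they were 4.35, 1.89 and 1.28 TPM. The 2 methods ran in opposite directions, and the fitted change was -0.22 ± 0.49 (limma, adjusted p = 0.793).

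Of the actins and actinins of the thin filament and Z-disc, Actn3 alone was higher at PD14 than at PD2 in both methods. Acta1, Actc1 and Actn2 were lower in both. Actc1, the cardiac actin that embryonic skeletal muscle also makes, was at 0.0687 and 0 TPM in the rRNA-depleted and poly(A) libraries of PD14, against 1.48 and 5.69 TPM at PD2. It was listed at 0 in both PD8 libraries, and its fitted change of -1.98 ± 0.46 did not pass (limma, adjusted p = 0.0540). Actn2, the actinin of all striated muscle Z-discs, had 0.0363 and 0 TPM at PD14, against 0.578 and 1.13 TPM at PD2, and was below the filter. Actn3, the actinin of fast fibres, ran the other way, with 1.58, 1.98 and 2.22 TPM in the rRNA-depleted and 1.23, 1.71 and 2.65 TPM in the poly(A) libraries at PD2, PD8 and PD14. Its groups did not overlap, but the change of 0.52 ± 0.26 did not pass (limma, adjusted p = 0.234).

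Of the 7 troponin genes, 5 were lower in both PD14 libraries than in both PD2 libraries (14.9% of all genes), and Tnnt3 was the only one called. Tnnt2, the cardiac troponin T that is also made in early skeletal muscle, had 3.51, 1.02 and 1.34 TPM in the rRNA-depleted and 14.6, 2.00 and 1.51 TPM in the poly(A) libraries at PD2, PD8 and PD14. All 4 later values lay below both PD2 values, and the change was -1.79 ± 0.45 (limma, adjusted p = 0.0633). Tnni2, the inhibitory subunit of fast muscle, had 0.463 and 0.200 TPM at PD14, against 2.06 and 2.05 TPM at PD2, with 0.112 and 0.390 TPM at PD8 (change -1.20 ± 0.29, limma, adjusted p = 0.0601). Tnni1, its counterpart in slow and embryonic muscle, had 0.475 and 0.284 TPM at PD14, against 1.37 and 2.39 TPM at PD2, with 0.292 and 1.10 TPM at PD8 (change -1.04 ± 0.33, limma, adjusted p = 0.103). Neither subunit overlapped between PD14 and PD2.

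The calcium-binding subunits differed in level and course. Tnnc2, of fast muscle, had 0.156 and 0 TPM at PD14, against 0.909 and 0.894 TPM at PD2, but 592 of its 800 exonic bases are shared with Ube2c, a mitotic gene read from the other strand, which leaves its level uncertain. Tnnc1, of slow and cardiac muscle, had 5.23, 2.81 and 4.08 TPM in the rRNA-depleted and 9.65, 5.77 and 6.93 TPM in the poly(A) libraries at PD2, PD8 and PD14. Its PD14 and PD2 groups overlapped (change -0.36 ± 0.21, limma, adjusted p = 0.302). Tnnt1, the slow troponin T, had 2.54 and 0.608 TPM at PD14, against 1.10 and 3.49 TPM at PD2, in the rRNA-depleted and poly(A) libraries, with 1.23 and 0.677 TPM at PD8, so the 2 methods disagreed in direction (change -0.36 ± 0.56, limma, adjusted p = 0.687).

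Among the 6 myosin heavy chain genes, Myh3, Myh7 and Myh8 were higher in both PD2 libraries than in all later ones, and the adult fast genes Myh1 and Myh2 were highest at PD8 in both methods. Beside Myh3, Myh8 of perinatal muscle was at 0.0329 and 0 TPM at PD14, against 0.316 and 0.102 TPM at PD2, and Myh7 of slow and cardiac muscle was at 0 and 0.0144 TPM, against 0.139 and 0.195 TPM. Myh6, of the atria, stayed at or under 0.0826 TPM in every library. Myh1, of adult fast fibres, had 0.789, 3.54 and 1.67 TPM in the rRNA-depleted and 1.18, 1.91 and 0.415 TPM in the poly(A) libraries at PD2, PD8 and PD14. Myh2, its neighbour 2534 bases away, had 0.130, 1.35 and 1.11 TPM and 0.663, 1.08 and 0.0957 TPM in the same order. For both genes the 2 PD8 libraries lay above the 2 PD2 libraries, and neither passed in any comparison.

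Myh3, Myh2, Myh1 and Myh8 lie in 1 cluster on chromosome 11, within gaps of at most 68735 bases, and their coding sequences are alike, so reads can be divided between them. Antisense genes share 515 exonic bases with Myh1 (Myhas) and 237 with Myh2 (9430073C21Rik), which makes those values uncertain too.

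Of the 4 genes of light chains and myosin binding, 3 were lower in both PD14 libraries than in both PD2 libraries (14.9% of all genes). Mylpf, the regulatory light chain of fast muscle, had 3.77, 1.14 and 1.80 TPM in the rRNA-depleted and 6.85, 2.73 and 2.00 TPM in the poly(A) libraries at PD2, PD8 and PD14 (PD14 against PD2: -1.08 ± 0.29, limma, adjusted p = 0.0723). Myl1, the essential light chain of fast muscle, was at 0.153 and 0 TPM at PD14, against 0.752 and 1.92 TPM at PD2. Mybph, which binds myosin in the thick filament, was at 0.0554 and 0 TPM at PD14, against 0.478 and 0.702 TPM at PD2, though 1162 of its 2329 exonic bases are shared with Adora1 on the other strand. For these 3 genes both PD2 libraries lay above all later ones. Myl4, the light chain of embryonic muscle and atria, had 5.22, 5.12 and 4.84 TPM in the rRNA-depleted and 8.95, 3.75 and 5.83 TPM in the poly(A) libraries, and its PD14 and PD2 groups overlapped (-0.32 ± 0.31, limma, adjusted p = 0.522).

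The giant sarcomere proteins were near 0 throughout. Ttn, the spring that spans from Z-disc to midline, had at most 0.0160 TPM in a later library, against 0.795 and 0.0744 TPM in the rRNA-depleted and poly(A) libraries of PD2. Neb, the ruler of the thin filament, was at 0.246 and 0.155 TPM at PD14, against 0.619 and 0.326 TPM at PD2. Both were lower in both PD14 libraries than in both PD2 libraries.

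The receptor genes of the neuromuscular junction showed the same order at trace levels. Chrna1, the ligand-binding subunit of the muscle acetylcholine receptor, had 0.0460 and 0.0612 TPM at PD14, against 0.590 and 1.08 TPM at PD2. Chrng, the subunit of the fetal receptor, was listed at 0 in all 4 later libraries, against 0.0981 and 0.659 TPM at PD2. Musk, the kinase that clusters the receptor, had 0.0917 and 0.240 TPM at PD14 and was listed at 0 in both PD2 libraries. Of the genes of calcium release and energy supply, Ryr1, the release channel, Casq2, the calcium store protein, and Ckm, the muscle creatine kinase, none had groups that separated PD14 from PD2, and Ckm was above 0 in 1 library only, at 0.0327 TPM.

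The membrane proteins did not move together. Itga7, the laminin receptor of muscle, had 14.7, 9.32 and 6.31 TPM in the rRNA-depleted and 16.0, 20.2 and 6.25 TPM in the poly(A) libraries at PD2, PD8 and PD14. Both PD14 libraries lay below all 4 earlier ones, and the change was -1.16 ± 0.31 (limma, adjusted p = 0.0720). Cav3, the caveolin of muscle, had 3.24, 10.3 and 8.95 TPM in the rRNA-depleted and 1.74, 3.87 and 2.79 TPM in the poly(A) libraries. It was highest at PD8 in both methods, and neither the change of 1.12 ± 0.28 at PD8 (limma, adjusted p = 0.135) nor that of 0.85 ± 0.28 at PD14 (adjusted p = 0.109) against PD2 passed.

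**Figure D4:**
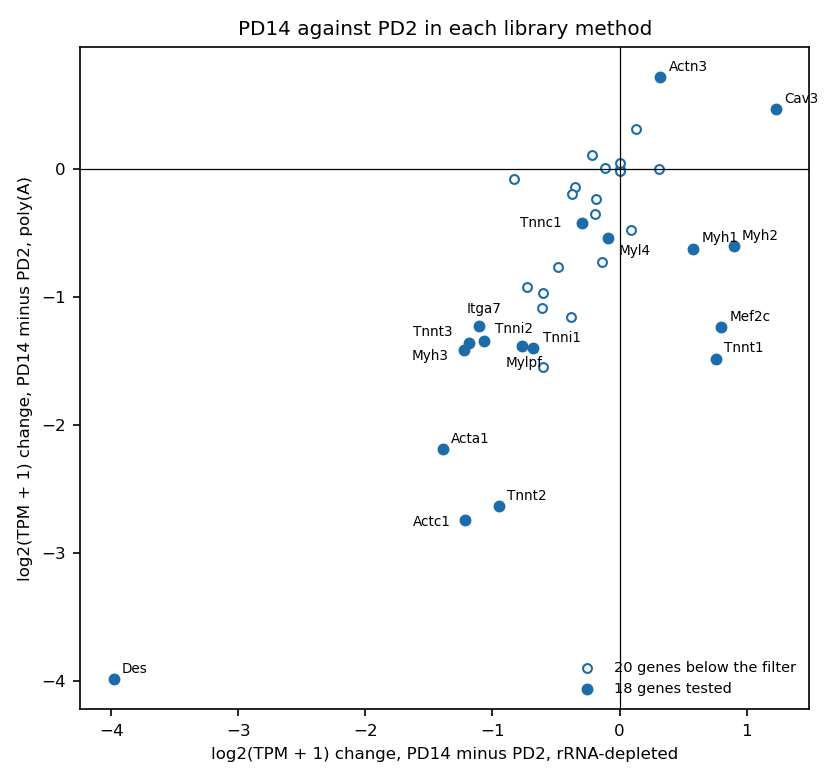
Log2(TPM + 1) difference of PD14 from PD2 by rRNA depletion (x axis) and by poly(A) enrichment (y axis) for the 38 genes, filled where the gene was tested. In the lower left quadrant 24 genes are lower in both methods, with Des at -3.98 on both axes, and Mef2c, Tnnt1, Myh1 and Myh2 lie in the lower right quadrant.

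The 2 steps of passaging were compared through PD8, which both steps share. For PD8 against PD2, 0 of the 18 genes passed in limma (0% of genes tested were called lower and 0.0225% higher). There were 8 lower at an unadjusted p under 0.05, against 8.39% of all genes, and 1 higher, against 12.0%. The 8 include Actc1, Tnni2 and Myh3, which met the filter only through PD2, so a lower PD8 level was built into their selection. For PD14 against PD8, 0 of the 18 passed (0% of genes in either direction), with 3 lower at an unadjusted p under 0.05 (2.70% of all genes) and 0 higher. Des was at -2.90 ± 0.28 over the early step (limma, adjusted p = 0.0694) and -1.08 ± 0.28 over the late step (adjusted p = 0.866). Acta1 was at -0.66 ± 0.26 and -1.13 ± 0.26, and Tnnt3 at -0.63 ± 0.26 and -0.64 ± 0.26, over the early and the late step. Myh3 was at -1.30 ± 0.27 and -0.02 ± 0.27.

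The late step minus the early step was tested in the same model, and 0 of the 18 genes passed in limma (0% of genes tested in either direction). At an unadjusted p under 0.05, 5 genes had a positive difference, meaning that the fitted late change lay above the early one: Des at 1.82 ± 0.48, Actc1 at 2.08 ± 0.79, Tnni2 at 1.39 ± 0.51, Myh3 at 1.29 ± 0.47 and Tnnc1 at 1.002 ± 0.37. Cav3 and Myh1 had negative ones, at -1.39 ± 0.48 and -1.78 ± 0.64. Actc1, Tnni2 and Myh3 met the filter only through PD2, so a drop in the early step was built into their selection, and nothing is read from the count of 5. Among all genes tested 1.48% were positive and 2.77% negative at that level. Leaving out a PD2 library left 1 in that group. Without the rRNA-depleted one the early change was -2.71 for Des, -2.77 for Actc1 and -2.49 for Tnnt2, and without the poly(A) one it was -3.10 for Des. Over all fits with 1 library left out, the early change ranged from -2.77 to -1.29 for Actc1 and from -2.49 to -1.04 for Tnnt2.

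**Figure D5:**
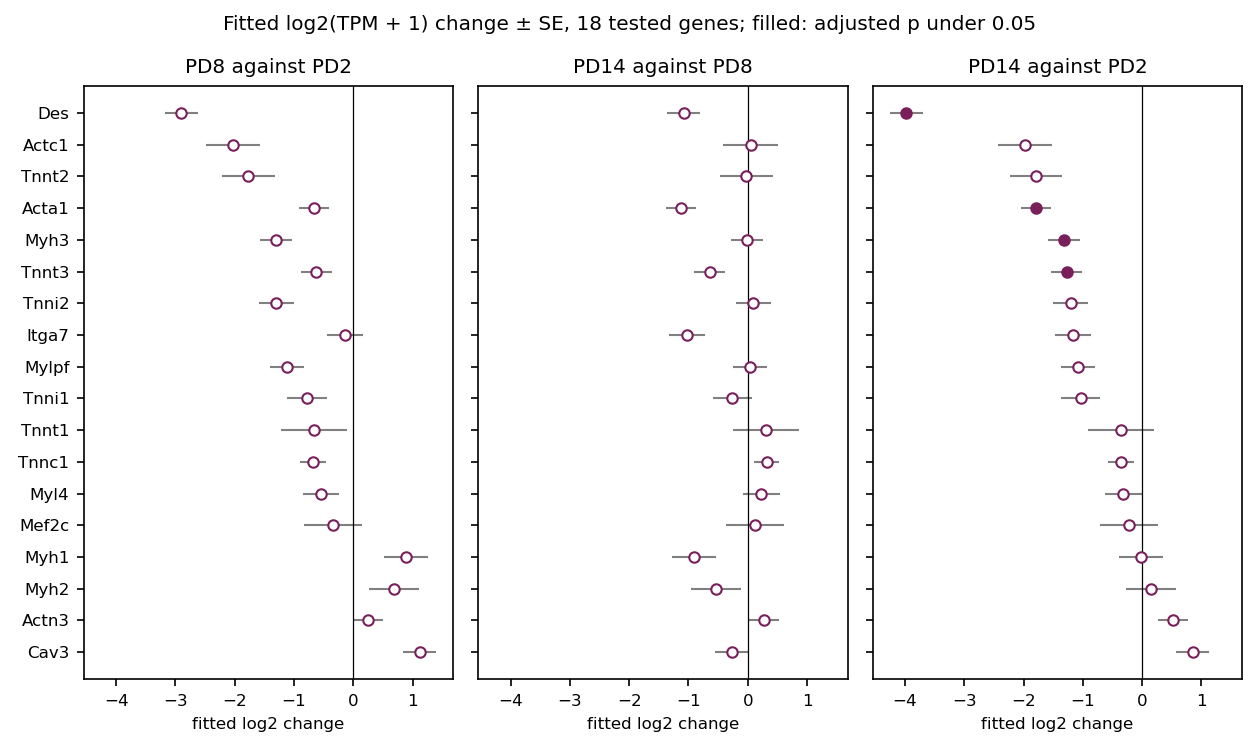
Fitted log2(TPM + 1) change with its SE for the 18 tested genes in PD8 against PD2, PD14 against PD8 and PD14 against PD2, with filled points where the adjusted p was under 0.05. Des, Myh3, Acta1 and Tnnt3 are filled in the right panel and no point is filled in the other panels.

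Other genes of striated muscle, taken from lists outside the 38, did not move as a block. Both PD14 libraries lay below both PD2 libraries for 10 of 35 sarcomere, 9 of 27 excitation and 8 of 19 regulator genes. They did so for 2 of 22 junction and 4 of 17 cardiac genes (14.9% of all genes). In the same order of lists, 6, 4, 0, 3 and 2 genes had both PD14 libraries above both PD2 libraries (19.7% of all genes). Over all genes tested 4.77% were called lower and 6.41% higher for PD14 against PD2, and a call or 2 among the 9 to 14 genes tested in each of these lists is not a result about the list. Of 35 further sarcomere and myofibril genes 10 were tested and 0 passed for PD14 against PD2 in limma (median over the 35 of -0.01). The most abundant of them, the actinin Actn1 and the filamin Flnc, which fibroblasts also make, had 399 and 532 TPM and 125 and 90.8 TPM in the rRNA-depleted and poly(A) libraries of PD14, against 585 and 776 TPM and 168 and 134 TPM at PD2. Of 19 further regulators and fusion genes 10 were tested (median -0.11). Tmem8c, the fusion protein myomaker, named after its values were seen and below the filter, was listed at 0 in all 4 later libraries, against 0.132 and 0.654 TPM at PD2.

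Of 27 further genes of excitation, calcium and energy supply 12 were tested, 1 fell and 1 rose (median -0.05). The muscle enolase gene Eno3 fell, with 7.24 and 9.97 TPM at PD14, against 22.2 and 33.6 TPM at PD2 (-1.58 ± 0.22, limma, adjusted p = 0.0244), and the calcium channel subunit gene Cacnb1 rose (1.56 ± 0.22, adjusted p = 0.0244). Of 22 further genes of the junction and the dystrophin complex 14 were tested, 1 fell and 2 rose (median 0.24). Chrnb1, another subunit of the muscle acetylcholine receptor, fell to 3.04 and 4.37 TPM at PD14, against 8.76 and 12.7 TPM at PD2 (-1.31 ± 0.21, limma, adjusted p = 0.0295), while Sspn, of the dystrophin complex, rose by 1.54 ± 0.15 and Agrn, the nerve signal that activates Musk, by 1.44 ± 0.30 (limma, adjusted p = 0.0166 and 0.0447). Of 17 cardiac lineage genes, 4 of which are also in the sarcomere list, 9 were tested and 0 passed in limma (median -0.03); the highest were the heart and limb factors Hand2 and Tbx5, with 14.3 and 26.0 TPM and 19.9 and 9.14 TPM at PD14, against 13.7 and 10.0 TPM and 17.7 and 5.85 TPM at PD2.

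Genes of other cell types and of cell division were read against the same shares of all genes tested, 4.77% called lower and 6.41% called higher. Of 17 smooth-muscle contractile genes, all tested, 2 fell, Actg2 (-1.88 ± 0.18) and Tpm1 (-0.90 ± 0.17), and 0 rose (median -0.27). Of 20 fibroblast genes, all tested, 0 fell and 4 rose, Lum (1.92 ± 0.27), Dcn (1.72 ± 0.18) and Col3a1 (1.35 ± 0.19) by the most (median 0.33), and their summed level was 46134 and 34030 TPM in the rRNA-depleted and poly(A) libraries of PD14, against 28800 and 25581 TPM at PD2. Of 16 mitosis genes, all tested, 15 fell, Mki67 (-2.18 ± 0.25), Ccna2 (-2.16 ± 0.30) and Kif11 (-1.97 ± 0.25) by the most (median -1.70), with sums of 340 and 169 TPM at PD14, against 926 and 754 TPM at PD2. The adjusted p of these genes (limma) lay between 0.0166 and 0.0400.

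Markers of other lineages that an embryo culture can hold were called in small numbers in limma. Both PD14 libraries lay below both PD2 libraries for 7 of 12 epithelial and 4 of 12 neural and glial markers. The same held for 2 of 12 endothelial and 3 of 16 macrophage and leukocyte markers, beside 21 of the 38 genes and 14.9% of all genes. In the same order of lists, 0, 0, 1 and 1 markers had both PD14 libraries above both PD2 libraries (19.7% of all genes). Of 12 epithelial markers 4 were tested, and Krt19 (-2.45 ± 0.47) and Krt18 (-2.42 ± 0.31) fell (median -0.56), with sums of 6.19 and 2.75 TPM at PD14, against 23.8 and 43.7 TPM at PD2, and with Epcam at or under 0.426 TPM. Krt18 met the filter only through PD2, so a lower later level was built into its selection. Of 12 neural and glial markers 8 were tested, and Nes (-2.26 ± 0.28) and Gap43 (-2.18 ± 0.43) fell and Map2 (1.59 ± 0.34) rose (median -0.39), with sums of 190 and 178 TPM at PD14, against 135 and 241 TPM at PD2. Of 12 endothelial markers 7 were tested, and Kdr (-1.38 ± 0.24) and Flt1 (-0.75 ± 0.17) fell (median -0.02), with sums of 39.4 and 78.0 TPM, against 56.2 and 117 TPM; Tie1 and Cldn5 were listed at 0 throughout. Of 16 macrophage and leukocyte markers 15 were tested and 0 passed in limma (median -0.35), and their sums of 46.4 TPM in the rRNA-depleted and 732 TPM in the poly(A) library of PD14, against 173 and 446 TPM at PD2, ran in opposite directions. The adjusted p of the named genes (limma) lay between 0.0208 and 0.0496. The part of these cell types and of division in the lower level of the striated muscle genes was not tested.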

How the data were processed

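RNA was measured by sequencing in 6 MEF libraries, 2 at each of PD2, PD8 and PD14. The authors deposited 1 table of TPM per gene symbol. The submitters' processing notes name bcl2fastq, cutadapt 1.14, HISAT2 2.0.5, StringTie 1.3.1c and mm10; the annotation is not given in the sources used here. Summed over the table, the deposited TPM came to 1000000 in each poly(A) library and in rRNA-depleted ones to between 937217 and 950531. TPM carry no read numbers, so depth and counting error are unknown.

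Genes with TPM of at least 1 in at least 2 libraries (13332) were fitted on log2(TPM + 1), which understates changes of low genes, with limma 3.58.1 in R 4.3.3 (group plus replicate number as a block, mean-variance trend, 2 residual and 3.22 prior degrees of freedom). Tests are two-sided, with Benjamini-Hochberg adjustment across the genes tested and a threshold of 0.05; errors are SE. The fit was run on simulated data, with changes placed only in genes of higher level and a method effect equal in all groups. That run does not cover genes of low TPM or genes in which the methods disagree, and nothing is read from it for them.

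Replicate number stands for library method in the labels, and deviations from group means correlated at 0.66 to 0.85 between libraries of the same number. Positions and exon overlaps come from GENCODE M21, promoter windows from RefSeq GRCm38.p6. The 38 genes, the other lists and the naming rule were chosen with earlier results of these data known: every one of the 38 is accounted for, those past the filter get the value of each library, and each other list gets up to 3 called genes with the largest change or, for muscle lists with none, the 2 most abundant. Alternatives covered pseudocount, filter, scaling, block, trend and left-out libraries. A result among the other regulators and fusion genes is not reported here.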

Additional observations from a re-analysis of the deposited data

Results flagged for a closer look

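Between PD14 and PD2, 4 of the 18 tested genes went one way by rRNA depletion and the opposite way by poly(A) enrichment. The log2(TPM + 1) difference of Mef2c was 0.80 by rRNA depletion and -1.23 by poly(A) enrichment, that of Tnnt1 0.76 and -1.48, that of Myh1 0.58 and -0.62, and that of Myh2 0.90 and -0.60. With 1 library per method and group, the difference between the methods was not tested.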

How the results depend on the processing

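For PD14 against PD2, the 4 genes called as reported became 2 without the filter on low values and 0 with no replicate block (also 0 among all genes); leaving out 1 library gave 0 to 6. For PD8 against PD2, the count changed when 1 PD2 library was left out, and so did the number of calls over all genes tested. For PD14 against PD8 and the step difference the count was 0 under all 14 alternatives. A margin of at least 1.5-fold, chosen after seeing the data, left 1 gene with PD14 above PD2 (6.69% of all genes) and 3 with PD8 above PD2 (4.1%). It left 0 with PD14 below PD8 (1.18%), 0 with PD14 above PD8 (1.68%) and 1 with PD2 below the other 4 libraries (2.82%). PD14 lay above PD8 for 0 genes also under quantile normalization (7.07%). Among the values recomputed here (all 18 genes for both comparisons with PD2, and for the other 2 the genes called for PD14 against PD2 or with an unadjusted p under 0.05 there), signs turned in genes that had not passed in that comparison, when 1 library was left out: for PD14 against PD2, Mef2c ranged from -0.999 to 0.57, Tnnt1 from -1.30 to 0.57, Myh1 from -0.55 to 0.51, Myh2 from -0.42 to 0.72 and Myl4 from -0.69 to 0.057; for PD8 against PD2, Mef2c from -1.12 to 0.44, Itga7 from -0.63 to 0.35 and Tnnt1 from -1.60 to 0.27; for PD14 against PD8, Myh3 from -0.0696 to 0.0392; and for the step difference Tnnt3 from -0.37 to 0.34, with 0.13 under quantile normalization. These causes were not tested. Depth is unknown, so values near 0 carry no stated error.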
